A study of Mus musculus with 6 samples.

Results

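The collagen gene family of the mouse retina was followed in oxygen-induced retinopathy (OIR). Its members were taken as every gene symbol made of Col, a number, the letter a and a number, with nothing after it, which gave 44 of the 22173 genes in the tables. They were described as 11 fibrillar genes, 8 basement membrane genes and 25 genes of other classes. OIR libraries 1, 2 and 3 came from wild-type C57BL/6J pups that spent postnatal days 7 to 12 in 75% oxygen and then breathed room air until day 17. Control libraries 1, 2 and 3 came from wild-type C57BL/6J pups that stayed in room air, with no period of oxygen, and whole retina was collected from both groups at day 17. OIR is used as a model of retinal neovascularisation: high oxygen stops and reverses the growth of the retinal vessels, and the poorly perfused retina is then revascularised with abnormal tufts. The pups did not receive any other agent or carry an engineered allele, per the labels. Nothing there states that replicate libraries stem from different pups, so the p-values describe the spread between libraries, part of which may be technical.

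Collagens are secreted or membrane-bound proteins whose chains wind around each other into a stiff helix. The fibrillar types assemble into the fibrils of connective tissue, cartilage and vitreous. Type IV chains form the network of basement membranes, the sheets beneath endothelium that also line the inner retina and enclose the lens. Types XV and XVIII are proteoglycans attached to basement membranes, and fragments of both are known as inhibitors of vessel growth. The remaining classes bind to fibrils, form beaded filaments or short-chain lattices, or span the cell membrane. In the eye, type II is best known as the main fibril of the vitreous, with type IX on its surface and types V and XI in its core.

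Values are RPKM, reads scaled to gene length and library size, so levels of different genes can be compared per length. The 6 libraries held 35615501 to 38025623 reads, as recovered from the values. The retinal identity of the tissue was plain in each library: 20 marker genes of retinal neurons summed to 13834 to 14178 RPKM in OIR and 11879 to 14356 RPKM in Control, none of them at 0 throughout. Lens RNA was uneven, however. The 28 lens genes on a marker list took 0.0520%, 0.599% and 0.0230% of the reads of OIR 1, 2 and 3, and 0.0248%, 0.0694% and 6.97% of those of Control 1, 2 and 3. The 10 genes of that list that define lens, among them Mip and Lim2, summed to 84.4, 982 and 30.4 RPKM in OIR and to 37.7, 92.8 and 11025 RPKM in Control. Control 3, and to a much smaller degree OIR 2, were thus rich in lens RNA, and results that rest on them are given with and without them.

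Collagen RNA as a whole was more abundant in OIR than in the Controls with little lens RNA. The 44 genes summed to 253, 217 and 276 RPKM in OIR 1, 2 and 3, and to 125, 145 and 249.3 RPKM in Control 1, 2 and 3, so Control 3 lay among the OIR libraries. The fibrillar genes summed to 50.1, 39.5 and 52.5 RPKM in OIR, against 16.8, 21.5 and 22.9 RPKM in Control, with no overlap. The basement membrane genes summed to 104, 76.4 and 111 RPKM in OIR. In Control 1 and 2 that sum was 25.8 and 30.4 RPKM, while Control 3 reached 114 RPKM, above each OIR library. The genes of other classes differed least, at 99.5, 102 and 113 RPKM in OIR and 82.6, 93.3 and 113 RPKM in Control. The makeup of collagen RNA differed accordingly: basement membrane genes gave 35.1% to 41.0% of the summed RPKM in OIR, against 20.6% and 20.9% in Control 1 and 2 and 45.6% in Control 3. In bulk tissue, more cells of a type and more RNA per cell cannot be told apart.

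**Figure D1:**
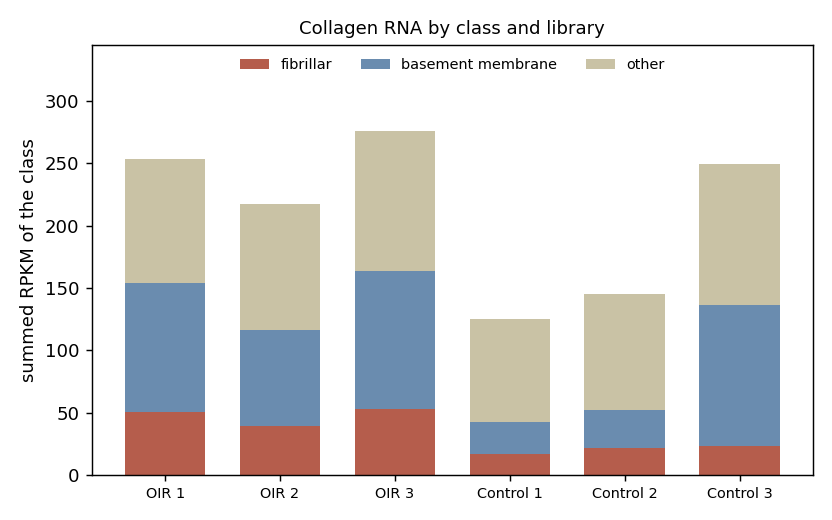
Summed RPKM (vertical axis) of the fibrillar, basement membrane and other collagen genes, stacked, in each of the 3 OIR and 3 Control libraries (horizontal axis). Control 1 and 2 hold the shortest bars, and the basement membrane segment of Control 3 (114 RPKM) is as tall as those of OIR 1 and 3.

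By the mean over OIR libraries the most abundant collagen RNAs were those of Col4a1 (47.0 RPKM), Col4a2 (33.2 RPKM), Col9a1 (31.7 RPKM), Col2a1 (28.1 RPKM) and Col23a1 (21.6 RPKM). Col9a1 headed the Control order with 36.1 RPKM, followed by Col4a1 at 22.4 RPKM, a mean that Control 3 dominates. The spread within a group was as large as the steps between several of these neighbours, as for Col4a2 (SD 5.83 RPKM) and Col9a1 (SD 2.67 RPKM) in OIR. Of all 44 genes, 24 reached 1 RPKM in at least 3 libraries and were tested, and 20 did not. Col1a1, Col5a1, Col7a1 and Col15a1 met that condition through OIR alone, being under 1 RPKM in each Control, so any difference they showed was partly set by the filter.

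In the limma test across all 12112 genes that met the condition, 9 collagen genes were higher in OIR and 1 was lower, while 14 did not pass an adjusted p of 0.05. Among all tested genes, 11.6% were called higher and 7.22% lower. The median log2 fold change of the 24 collagen genes was 0.51, beside 0.025 over all tested genes; all fold changes here are of RPKM + 1 and understate the change of low genes. By class, 4 of 6 tested fibrillar genes, 1 of 5 basement membrane genes and 4 of 13 other genes were higher, and the gene that was lower belonged to the last class. Because the filter favours genes that are high in 1 group, the test was also run on genes with a mean of at least 0.5 RPKM over all libraries, whatever their group. There, 11 of 34 collagen genes were higher and 1 was lower, against 11.3% and 6.59% of all 13105 genes, and the collagen median was 0.17, beside 0.025 over all of these genes. By class the 11 were 5 of 10 fibrillar, 1 of 8 basement membrane and 5 of 16 other genes. With no filter at all, 9 of 44 were higher and 1 was lower, against 6.73% and 2.95% of 17953 genes, and the collagen median was 0.0996, beside 0.012.

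Leaving out Control 3 and OIR 2 gave 14 collagen genes higher and 1 lower of 24, with 17.3% of all tested genes called higher and 16.0% lower. By class these were 6 of 6 fibrillar, 4 of 5 basement membrane and 4 of 13 other genes higher. Col1a1, Col5a1, Col7a1 and Col15a1 are among them, so these tallies were partly set by the filter. With Control 3 alone left out, the limma test called 10 higher and none lower (Col8a1 then had an adjusted p of 0.055), against 9.97% and 8.83% of all tested genes. By class, 4 of 6 fibrillar, 3 of 5 basement membrane and 3 of 13 other genes were then higher. The filter on the mean gave 17 of 34 higher and 1 lower without Control 3 and OIR 2 (16.9% and 15.0% of all genes), and 12 of 34 higher and none lower without Control 3 (9.58% and 7.97%). By class the 17 were 7 of 10 fibrillar, 4 of 8 basement membrane and 6 of 16 other genes. Over all 44 genes, tested or not, the 3 OIR libraries lay wholly above the 3 Controls for 16 genes and wholly below them for 3. Of all genes above 0 in any library, 20.5% lay wholly above and 12.2% wholly below. Without Control 3, which leaves fewer libraries to clear, 26 collagen genes lay wholly above and 4 wholly below, against 25.2% and 22.4% of all genes above 0.

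**Figure D2:**
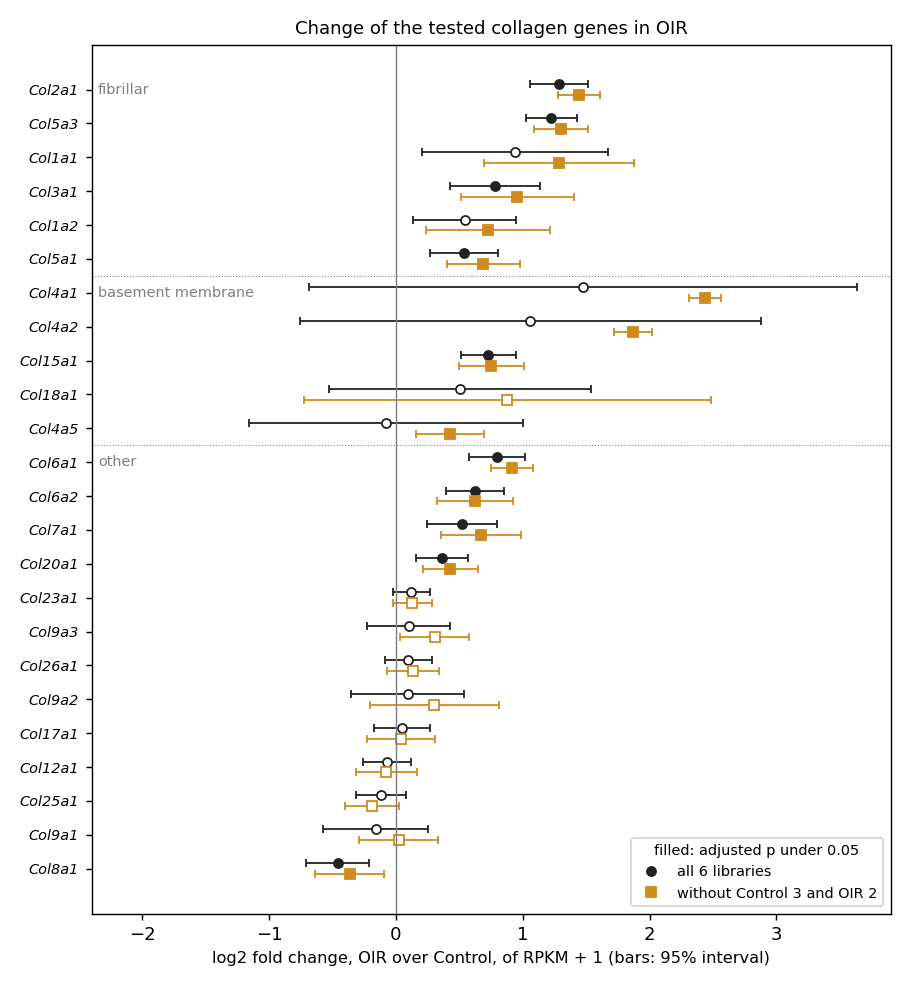
Log2 fold change of RPKM + 1, OIR over Control (horizontal axis), with its 95% interval for each of the 24 tested collagen genes (vertical axis, by class), from all 6 libraries (black circles) and without Control 3 and OIR 2 (orange squares); filled symbols passed an adjusted p of 0.05. The intervals of Col4a1 and Col4a2 span 0 with all libraries and shrink to the right of it without that pair. The 9 genes called higher with all libraries, and Col8a1, called lower, keep filled symbols in both fits.

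Sequence around the start sites is shown for the genes on which these results turn. RefSeq windows of 300 bases (GRCm38.p6, 250 bases before to 50 after a start site) were matched by symbol for 35 of the 44 genes. Those of Col4a1, on the minus strand, and Col4a2, on the plus strand, are head to head on chromosome 8 with start sites 21 bases apart. The Col4a1 start (11312826) lies past the Col4a2 start (11312805), so the annotated transcripts overlap at their 5′ ends. Their windows share 78 bases, chr8:11312777-11312854, printed on the plus strand. This stretch holds the first 50 bases after each start site and no base that lies before both. The neighbours Col4a6 and Col4a5 on chromosome X also run in opposite directions, with 1343 bases between their start sites and no shared window. For single genes the 250 bases before the start site are given: Col5a3 (chr9:20815068-20815317, minus strand) and Col15a1 (chr4:47207762-47208011, plus strand), which were higher in OIR, and Col8a1 (chr16:57754738-57754987, minus strand), the gene that was lower. Each reads 5′ to 3′, and capitals mark matches, on either strand, to the hypoxia response cores ACGTG and GCGTG, the GC box GGGCGG, the CCAAT box or the TATA box (TATAAA); no motif here overlaps another within the printed stretches.
Col4a1 and Col4a2 shared window: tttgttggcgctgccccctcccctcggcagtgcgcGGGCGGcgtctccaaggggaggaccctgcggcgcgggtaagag
Col5a3: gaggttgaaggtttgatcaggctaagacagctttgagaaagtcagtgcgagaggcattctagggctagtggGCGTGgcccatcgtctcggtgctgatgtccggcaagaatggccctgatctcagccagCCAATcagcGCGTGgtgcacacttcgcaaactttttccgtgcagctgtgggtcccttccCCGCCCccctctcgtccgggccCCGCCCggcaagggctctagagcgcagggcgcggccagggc
Col15a1: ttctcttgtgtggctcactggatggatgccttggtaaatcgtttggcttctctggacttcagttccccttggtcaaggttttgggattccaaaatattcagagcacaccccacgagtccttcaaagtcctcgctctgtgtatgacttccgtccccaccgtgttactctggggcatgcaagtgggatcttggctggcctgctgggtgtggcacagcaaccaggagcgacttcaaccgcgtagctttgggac
Col8a1: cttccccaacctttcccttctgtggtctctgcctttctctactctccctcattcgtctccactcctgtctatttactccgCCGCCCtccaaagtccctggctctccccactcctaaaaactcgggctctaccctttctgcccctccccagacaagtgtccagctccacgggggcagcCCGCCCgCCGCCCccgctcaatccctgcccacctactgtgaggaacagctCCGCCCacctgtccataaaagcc

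The GC box, a site bound by Sp-family factors, was in 23 of the 38 collagen windows (60.5%), against 35.7% of all 32851 windows in the table. The Col8a1 sequence holds 4 GC boxes and the Col15a1 sequence none, and the stretch common to Col4a1 and Col4a2 holds 1. The cores of the hypoxia response element were near their share of all windows: ACGTG was in 5 of 38 (13.2%) against 19.6% of all windows, and GCGTG was in 10 of 38 (26.3%) against 32.4%. CCAAT was in 34.2% of collagen windows and 37.4% of all, and TATAAA in 13.2% and 13.6%. These are counts of letters in fixed windows, given without a test, and they are silent on binding.

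In the fibrillar class, 7 of 11 genes had every OIR library above every Control, against 1 of 8 basement membrane genes, 8 of 25 others and 20.5% of all genes above 0. The contrast with basement membrane genes rests on Control 3. Without it, 9 of 11 fibrillar, 6 of 8 basement membrane and 11 of 25 other genes lay wholly above, against 25.2% of all genes above 0. Col2a1, the chain of type II collagen, was the fibrillar gene with the highest level: it stood at 29.3, 23.7 and 31.3 RPKM in OIR 1, 2 and 3, against 9.93, 11.1 and 11.6 RPKM in Control 1, 2 and 3. Even the lowest OIR library was well above the highest Control. Its mean was 28.1 ± 3.96 RPKM in OIR and 10.9 ± 0.869 RPKM in Control (SD, n = 3 each), a 2.58-fold difference, with a log2 fold change of 1.28 (SE 0.10) and a limma adjusted p of 8.7e-05. The call held in all 18 alternative fits, with log2 fold changes of 1.21 to 1.44. Ciliary body and vitreous, the latter with type II collagen as its main fibril, lie beside the retina and were read from 7 markers. With all libraries none passed the test, beside 11.6% of all tested genes called higher and 7.22% lower. Without Control 3 and OIR 2, 2 were higher and none was lower (17.3% and 16.0% of all tested genes). These were Tgfb2 and Crb2 (limma adjusted p 0.0079 and 0.047), named with Optc after the values were seen. Optc had an adjusted p of 0.92 there, with 6.47, 6.44 and 20.7 RPKM in OIR and 5.45, 18.8 and 27.2 RPKM in Control. The 7 markers summed to 98.2, 90.1 and 124 RPKM in OIR and to 85.2, 127 and 133 RPKM in Control. The part of these tissues in the Col2a1 values was not tested.

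Col5a3, which encodes a minor chain of type V collagen, had 4.37, 3.79 and 4.75 RPKM in OIR and 1.34, 1.17 and 1.29 RPKM in Control. The Controls lay close together, including Control 3, and all OIR libraries were far above them. The means were 4.30 ± 0.481 RPKM in OIR and 1.26 ± 0.0861 RPKM in Control (SD, n = 3 each), 3.40-fold apart (log2 fold change 1.22, SE 0.092, limma adjusted p 4.4e-05), and this call too held in all 18 alternative fits. Col5a1, the chain found in most type V molecules, had 1.42, 1.28 and 1.63 RPKM in OIR and 0.407, 0.735 and 0.933 RPKM in Control. Its log2 fold change of 0.54 (adjusted p 0.014) was lost without Control 1 or without OIR 1, with adjusted p up to 0.055. Col5a2, the usual partner of Col5a1, fell below the filter with 1.27, 0.991 and 1.09 RPKM in OIR and 0.224, 0.326 and 0.301 RPKM in Control. These groups were 3.93-fold apart and did not overlap, and under the filter on the mean Col5a2 was higher in OIR, with a log2 fold change of 0.72 (SE 0.092) and an adjusted p of 0.0015. Thus each of the 3 type V genes was higher in every OIR library than in every Control. The ratio of Col5a1 to Col5a2 RPKM was 1.12 to 1.497 in OIR and 1.82 to 3.10 in Control.

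The RNAs of the interstitial types I and III were low in this tissue. Col3a1, the chain of type III collagen found in elastic tissues and vessel walls, had 3.60, 2.79 and 3.20 RPKM in OIR and 0.860, 1.75 and 1.82 RPKM in Control. The groups did not overlap and its log2 fold change was 0.78 (SE 0.16, adjusted p 0.012), a call lost without OIR 1 (adjusted p 0.059). Col1a1 and Col1a2 encode the chains of type I collagen, the main fibril of most connective tissue. Col1a1 had 2.84, 1.20 and 2.62 RPKM in OIR and 0.186, 0.969 and 0.843 RPKM in Control. OIR 2 was only slightly above Control 2, and Control 1, with 41 reads, was far below the other Controls. Its means were 3.33-fold apart, but with a log2 fold change of 0.94 (SE 0.30) it did not pass (adjusted p 0.082). Col1a2 likewise did not pass, at 4.12, 3.04 and 4.63 RPKM in OIR and 1.64, 2.99 and 2.59 RPKM in Control (log2 fold change 0.54, adjusted p 0.067). Without Control 3 and OIR 2 both passed, with log2 fold changes of 1.29 for Col1a1 and 0.73 for Col1a2 (adjusted p 0.011 and 0.038). Both also passed without OIR 2 alone (limma adjusted p 0.015 and 0.019). With Control 3 alone left out, neither did (0.080 and 0.096), so these calls rest on leaving out OIR 2.

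Control 1, the lowest library for Col1a1, Col1a2 and Col3a1, was also low in markers of smooth muscle and connective tissue. The 6 smooth muscle markers summed to 29.8, 23.3 and 35.6 RPKM in OIR and to 2.003, 17.4 and 27.1 RPKM in Control. Of the 4 tested, 1 was higher in OIR and none was lower (11.6% and 7.22% of all tested genes), and that gene was under 1 RPKM in each Control. The sum of Control 1 was far below the rest, and Control 3 lay within the OIR range. The 16 connective tissue markers summed to 17.5, 18.5 and 28.1 RPKM in OIR and to 10.3, 19.8 and 38.0 RPKM in Control, so that Control 2 was above OIR 1 and 2 and Control 3 was highest. Of them 1 of 5 tested was higher in OIR and none was lower (11.6% and 7.22% of all tested genes). That gene was Pdgfra (limma adjusted p 0.0093), named after its values were seen. The other tested markers, Dcn, Fmod, Mfap4 and Islr, had adjusted p of 0.50, 0.83, 0.80 and 0.80. On the same list 1 marker was at 0 in all libraries of both groups. The fibroblast proteoglycan genes Dcn and Lum, at 0.383 and 0.0130 RPKM, were again lowest in Control 1. Of 8 corneal epithelium markers none reached the filter, their sums were 0.281 to 0.400 RPKM in OIR and 0.354 to 1.18 RPKM in Control, and Krt14 and Krt17 were at 0 in every library. The part of such cells in the type I and III values was not tested.

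The other fibrillar genes were close to 1 RPKM or lower and were not tested with the main filter. Col11a1, a core chain of cartilage and vitreous fibrils, had 0.878, 0.723 and 1.27 RPKM in OIR and 0.702, 0.928 and 1.38 RPKM in Control, so its groups overlapped throughout. Its ratio to Col2a1, whose fibrils it joins, was 0.02996 to 0.0405 in OIR and 0.0707 to 0.119 in Control. Col11a2 ranged over 0.832 to 1.30 RPKM in OIR and 0.684 to 0.957 RPKM in Control. Col27a1 ranged over 0.741 to 1.01 RPKM in OIR and 0.692 to 1.17 RPKM in Control. Col24a1 was the lowest, at 0.0609 to 0.124 RPKM in OIR and 0.0368 to 0.127 RPKM in Control. These 4 overlapped between groups, and under the filter on the mean none of the first 3 passed (adjusted p 0.91, 0.18 and 0.95 for Col11a1, Col11a2 and Col27a1), while Col24a1 did not reach that filter.

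**Figure D3:**
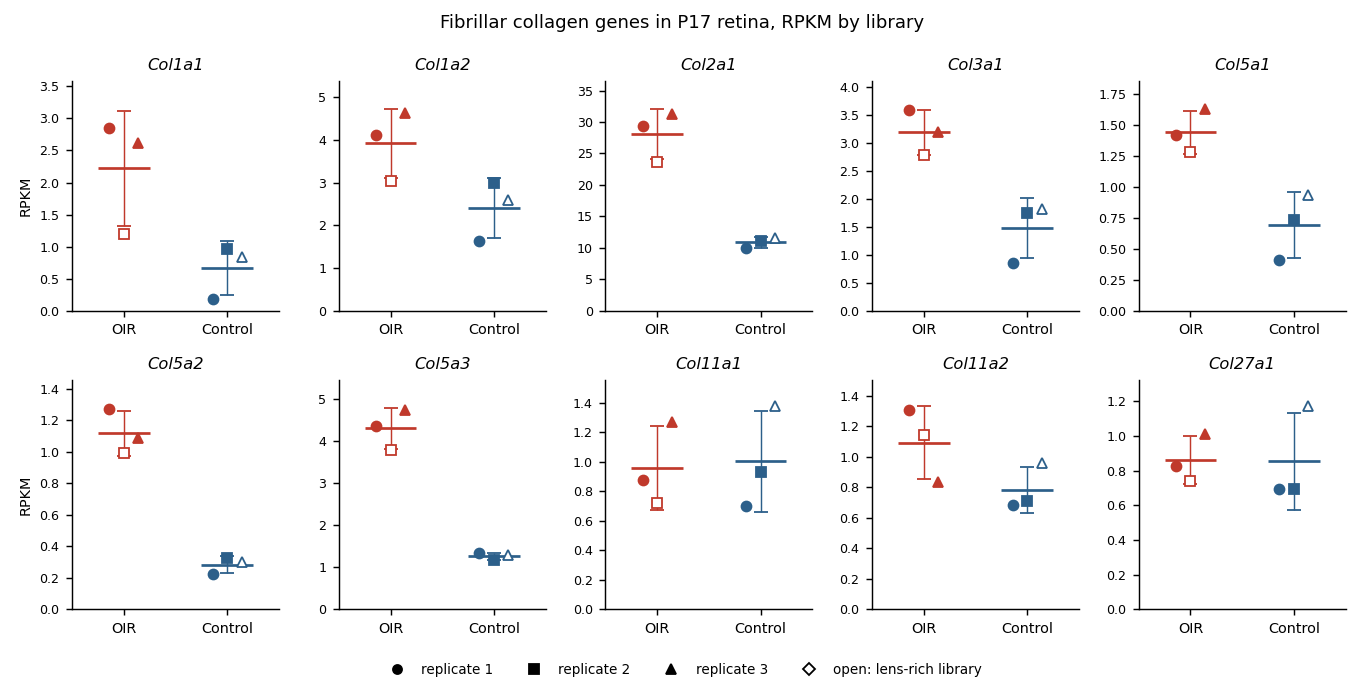
RPKM (vertical axes, each from 0) of 10 fibrillar collagen genes in OIR (red) and Control (blue); symbols are libraries, open where rich in lens RNA, with the mean (bar) and SD. Col2a1, Col3a1 and the 3 type V genes sit higher in every OIR library than in any Control. So do Col1a1 and Col1a2, by a small margin for OIR 2, whereas Col11a1, Col11a2 and Col27a1 overlap.

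The type IV genes were high in Control 3, the library rich in lens RNA, and the result for Col4a1, Col4a2 and Col4a5 depends on that library. Col4a1, whose protein with that of Col4a2 makes up the type IV molecule found in nearly all basement membranes, had 53.2, 35.9 and 51.9 RPKM in OIR 1, 2 and 3. In Control 1 and 2 it was at 8.94 and 8.82 RPKM, but in Control 3 it was at 49.5 RPKM, inside the OIR range. Those values rest on 8696 to 13064 reads in OIR and on 2200, 2164 and 11651 reads in Control 1, 2 and 3. With all libraries the log2 fold change was 1.48 with a 95% interval of -0.69 to 3.64 and an adjusted p of 0.28. Without Control 3 it was 2.26 (adjusted p 0.0051), and without Control 3 and OIR 2 it was 2.44 (adjusted p 2.6e-07). The mean of the OIR libraries was 5.30 times that of Control 1 and 2.

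Col4a2 followed the same pattern, with 35.9, 26.5 and 37.1 RPKM in OIR and 8.84, 9.70 and 39.5 RPKM in Control. Here Control 3 was above all OIR libraries. The log2 fold change was 1.06 (adjusted p 0.35) with all libraries, 1.72 (adjusted p 0.0047) without Control 3 and 1.87 (adjusted p 1.8e-06) without Control 3 and OIR 2. The Col4a1 to Col4a2 ratio was 1.48, 1.36 and 1.40 in OIR and 1.01, 0.910 and 1.252 in Control, so Control 3 fell between the other Controls and OIR on this measure although its levels were like those of OIR. OIR 2, the OIR library with most lens RNA, had the lowest Col4a1 and Col4a2 of its group. The 24 tested lens markers had a median log2 fold change of -1.40, and none passed the test. The part of lens RNA in the type IV values of Control 3 was not tested.

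The other type IV chains, which occur in specialised basement membranes such as those of kidney and lens, were low apart from Control 3. Col4a5 had 2.06, 1.84 and 2.69 RPKM in OIR and 1.40, 1.61 and 5.02 RPKM in Control. Its log2 fold change was -0.08 (adjusted p 0.92) with all libraries and 0.43 (adjusted p 0.023) without Control 3 and OIR 2, so the sign turned with that pair; without Control 3 alone it was 0.35 (adjusted p 0.089). Col4a3 ranged over 0.694 to 0.859 RPKM in OIR and had 0.716, 0.568 and 3.45 RPKM in Control. Col4a4, its partner on the same molecule, ranged over 0.746 to 1.07 RPKM in OIR and had 0.818, 0.792 and 2.63 RPKM in Control. Col4a6 had 0.680, 0.658 and 1.31 RPKM in OIR and 0.445, 0.634 and 2.81 RPKM in Control. For these chains Control 3 was the highest of the 6 libraries. Set against Control 1 and 2 alone, Col4a5 and Col4a6 were higher in each OIR library, while Col4a3 and Col4a4 overlapped. Under the filter on the mean and without Control 3 and OIR 2, none of Col4a3, Col4a4 and Col4a6 passed (adjusted p 0.53, 0.20 and 0.13). The ratio of Col4a1 to Col4a5 was 19.3 to 25.8 in OIR, against 6.41, 5.48 and 9.85 in Control.

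Col15a1, a proteoglycan chain of vascular and other basement membranes, was the basement membrane gene whose groups separated with all libraries. It had 1.33, 1.34 and 1.08 RPKM in OIR and 0.349, 0.269 and 0.454 RPKM in Control. Unlike for type IV, Control 3 stayed far below OIR. The 3.50-fold difference of the means came with a log2 fold change of 0.73 (SE 0.097) and an adjusted p of 0.0012, and the call held in all 18 alternative fits. Its level was low, with 219 to 262 reads in OIR and 53 to 86 in Control. Col18a1, the precursor of the fragment endostatin, had 8.94, 8.61 and 15.1 RPKM in OIR and 4.25, 8.02 and 10.3 RPKM in Control. Both groups were wide and overlapped, and it did not pass with all libraries (log2 fold change 0.51, 95% interval -0.53 to 1.54, adjusted p 0.43) nor without Control 3 and OIR 2 (0.88, adjusted p 0.28).

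**Figure D4:**
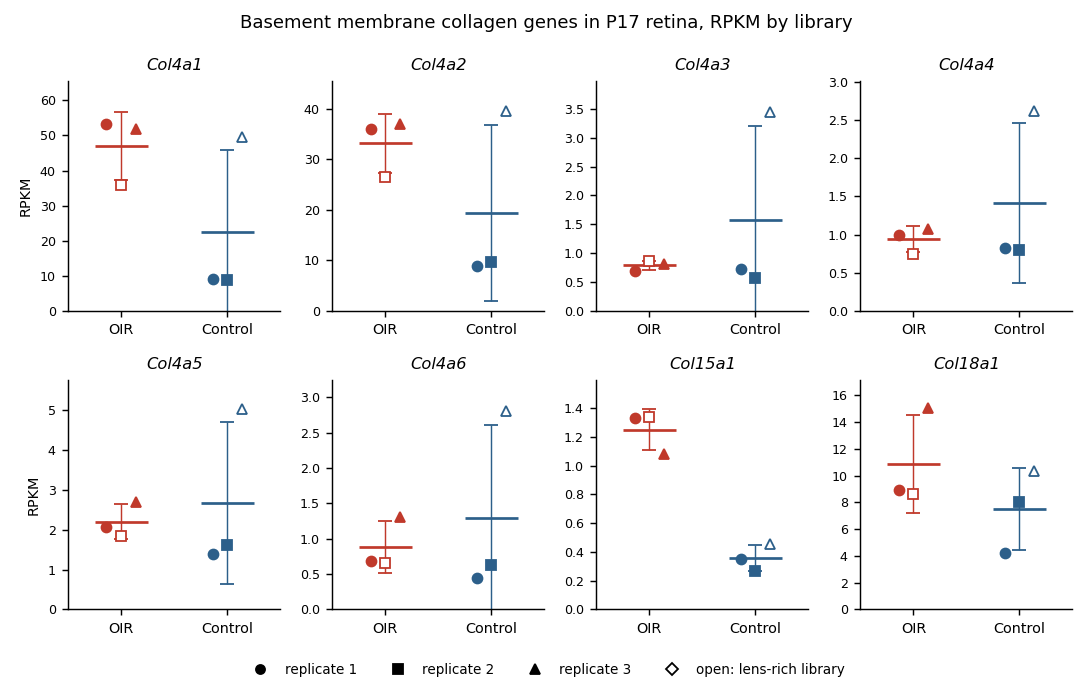
RPKM (vertical axes, each from 0) of the 8 basement membrane collagen genes in OIR (red) and Control (blue); symbols are libraries, open where rich in lens RNA, with the mean (bar) and SD, cut at 0 where the SD exceeds the mean. The open triangle of Control 3 stands apart from Control 1 and 2 for all 6 type IV genes and not for Col15a1.

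Partners of type IV collagen in basement membranes, such as laminins, nidogens and proteoglycans, were read from a list of 18 genes, of which 12 were tested. Of these 8 were higher in OIR and none was lower (11.6% and 7.22% of all tested genes), with a median log2 fold change of 0.61. Without Control 3 and OIR 2, 11 of 12 were higher (17.3% of all tested genes). Lama4, a laminin chain typical of vessel walls, had 4.66, 3.60 and 4.42 RPKM in OIR and 1.38, 1.33 and 1.003 RPKM in Control (log2 fold change 1.22, adjusted p 0.00012). Nid2, the linker protein nidogen, averaged 3.65 ± 0.442 RPKM in OIR and 1.57 ± 0.364 RPKM in Control (SD, n = 3 each; log2 fold change 0.86, adjusted p 0.0014). The proteoglycan gene Agrn averaged 23.9 ± 4.94 RPKM in OIR and 11.4 ± 0.301 RPKM in Control (adjusted p 0.0021), and the laminin gene Lamc1 had a log2 fold change of 0.66 (adjusted p 0.0032). Control 3 lay with the other Controls for Lama4, Nid2 and Agrn, which their choice by the smallest adjusted p over all libraries favours. Nid1 and Hspg2, chosen after their values were seen, were high in Control 3 as type IV was. Nid1, another nidogen, had 8.18, 6.55 and 8.88 RPKM in OIR and 2.46, 1.83 and 18.2 RPKM in Control. Hspg2, which encodes perlecan, had 4.24, 3.26 and 4.79 RPKM in OIR and 0.747, 1.03 and 4.35 RPKM in Control.

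Vessel markers were also higher in OIR. The 14 endothelial markers summed to 136, 127 and 125 RPKM in OIR and to 74.5, 75.4 and 68.3 RPKM in Control, with 11 of 13 tested higher and none lower, beside 11.6% and 7.22% of all tested genes. The 10 pericyte markers summed to 570, 471 and 552 RPKM in OIR and to 373, 396 and 336 RPKM in Control, with 7 of 8 tested higher. Most of each pericyte sum was Vtn, the tested marker that did not pass (means 384 RPKM in OIR and 336 RPKM in Control, limma adjusted p 0.15). Ndufa4l2 averaged 85.8 RPKM in OIR and 4.01 RPKM in Control. The means of the other tested pericyte markers were 1.44-fold (Abcc9) to 2.80-fold (Higd1b) apart. These pericyte genes are named after their values were seen. On each list 1 tested gene was under 1 RPKM in every Control. No marker of either list was at 0 in all libraries of a group, and Control 3 had the lowest sum on both lists. The part of a larger share of vessel cells in the collagen values was not tested.

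Among the other classes, type VI collagen forms beaded filaments around cells, and its main chains were higher in OIR. Col6a1 had 14.7, 15.5 and 16.1 RPKM in OIR and 7.88, 7.52 and 10.2 RPKM in Control, with narrow groups well apart. Its means of 15.4 ± 0.732 RPKM in OIR and 8.53 ± 1.45 RPKM in Control (SD, n = 3 each) were 1.81-fold apart (log2 fold change 0.80, SE 0.10, adjusted p 0.0010). Col6a2 had 2.94, 3.14 and 3.76 RPKM in OIR and 2.096, 1.54 and 1.70 RPKM in Control (log2 fold change 0.62, SE 0.10, adjusted p 0.0042), and both calls held in all 18 alternative fits. The ratio of Col6a1 to Col6a2 was 4.29 to 4.996 in OIR and 3.76 to 6.02 in Control. The type VI molecule needs a further chain. Col6a3, the usual one, had only 0.579, 0.265 and 0.602 RPKM in OIR and 0.0521, 0.119 and 1.41 RPKM in Control, with Control 3 highest of all. Under the filter on the mean its log2 fold change was 0.058 (adjusted p 0.93), and 0.55 (adjusted p 0.0052) without Control 3 and OIR 2.

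Col6a4, an alternative to the Col6a3 chain in mouse, had 0.834, 0.915 and 0.915 RPKM in OIR and 0.413, 0.317 and 0.352 RPKM in Control. Its groups did not overlap and Control 3 was among the Controls. Under the filter on the mean it was higher in OIR, with a log2 fold change of 0.47 (SE 0.085) and an adjusted p of 0.0071. The remaining chains overlapped and were scarce: Col6a5 had 0.0173 to 0.0582 RPKM in OIR and 0.0142 to 0.0355 RPKM in Control, and Col6a6 had 0.113 to 0.134 RPKM in OIR and 0.112 to 0.144 RPKM in Control.

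Col7a1, the anchoring fibril collagen of epithelial basement membranes, had 2.05, 1.30 and 1.48 RPKM in OIR and 0.573, 0.898 and 0.971 RPKM in Control. The groups did not overlap, and the log2 fold change was 0.52 (SE 0.13, adjusted p 0.019). That call was lost without a filter (adjusted p 0.053) and when Control 1 or OIR 1 was left out. Col20a1, a fibril-associated chain, had 5.21, 4.10 and 4.62 RPKM in OIR and 3.15, 3.64 and 3.32 RPKM in Control. Its difference was small, with a log2 fold change of 0.37 (SE 0.093, adjusted p 0.022), and it was lost when Control 1, Control 3, OIR 1 or OIR 3 was left out and without a filter, with adjusted p up to 0.11.

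Col8a1, a short-chain collagen of endothelial and corneal basement membranes, was the collagen gene that was lower in OIR. It had 1.02, 1.12 and 1.251 RPKM in OIR and 1.51, 1.995 and 2.34 RPKM in Control, so each OIR library was below each Control. The log2 fold change was -0.46 (SE 0.11, adjusted p 0.019). The call was lost without Control 2, without Control 3 (-0.37, adjusted p 0.055) or without OIR 1, with adjusted p up to 0.085, and it stood when both Control 3 and OIR 2 were left out (-0.36, adjusted p 0.047). Its partner Col8a2 was not tested with the main filter and had 0.598, 0.603 and 0.370 RPKM in OIR and 0.534, 1.29 and 1.37 RPKM in Control. Control 1 overlapped OIR, and under the filter on the mean Col8a2 did not pass (log2 fold change -0.42, adjusted p 0.11). The third short-chain gene, Col10a1, known from growth plate cartilage, was at 0.131 to 0.380 RPKM in OIR and 0.0603 to 0.198 RPKM in Control.

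The fibril-associated type IX genes were abundant and did not follow Col2a1. Col9a1 had 29.2, 31.5 and 34.5 RPKM in OIR and 27.9, 34.9 and 45.6 RPKM in Control. The groups overlapped (log2 fold change -0.16, 95% interval -0.57 to 0.26, adjusted p 0.57), and the sign turned without Control 3 (0.019). The ratio of Col9a1 to Col2a1 was 0.996, 1.33 and 1.101 in OIR against 2.81, 3.13 and 3.93 in Control, with wide separation. Col9a2 had 6.32, 6.88 and 10.03 RPKM in OIR and 6.41, 6.15 and 8.89 RPKM in Control. Col9a3 had 7.79, 7.29 and 8.89 RPKM in OIR and 5.73, 7.46 and 9.27 RPKM in Control. Both overlapped, and their 95% intervals of -0.35 to 0.54 and -0.23 to 0.43 on the log2 scale cover changes of either sign.

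Of the membrane-spanning collagens, Col23a1 was the highest, with 20.7, 21.7 and 22.4 RPKM in OIR and 18.8, 20.4 and 20.2 RPKM in Control. The groups did not overlap, yet the difference was small and did not pass (log2 fold change 0.12, 95% interval -0.026 to 0.27, adjusted p 0.23). Col25a1, known from amyloid plaques of human brain, had 1.69 to 1.81 RPKM in OIR and 1.75 to 2.22 RPKM in Control (adjusted p 0.39). Col17a1, a hemidesmosome component, had 0.945 to 1.29 RPKM in OIR and 0.915 to 1.19 RPKM in Control (adjusted p 0.78). Col26a1, with 1.92 to 2.25 RPKM in OIR and 1.85 to 1.99 RPKM in Control, and the fibril-associated Col12a1, with 0.909 to 1.09 RPKM in OIR and 1.05 to 1.17 RPKM in Control, did not pass either (adjusted p 0.44 and 0.62).

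The last genes were under 0.5 RPKM in every library and reached neither the main filter nor the filter on the mean. Col14a1, Col16a1, Col19a1, Col22a1, Col13a1 and Col28a1 lay between 0.0439 RPKM (Col28a1 in Control 1) and 0.461 RPKM (Col16a1 in OIR 3). Among them the OIR libraries were above the Controls for Col14a1 and Col28a1 and below them for Col19a1 and Col22a1. Of all genes above 0, 20.5% lay wholly above and 12.2% wholly below. In the limma fit with no filter Col14a1, Col28a1, Col19a1 and Col22a1 did not pass (adjusted p 0.086, 0.23, 0.21 and 0.17). Col14a1, Col22a1 and Col28a1 each had between 9 and 68 reads in a library, so counting error alone is large.

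**Figure D5:**
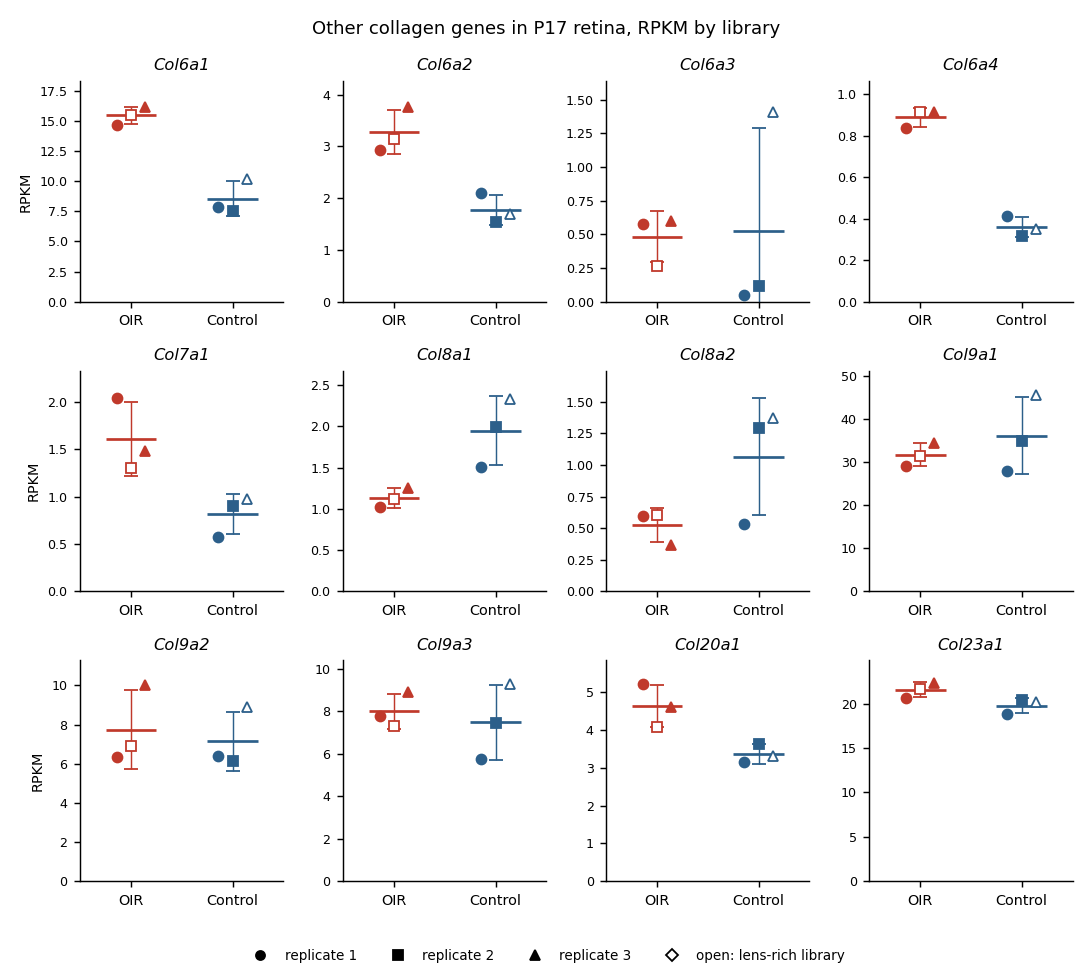
RPKM (vertical axes, each from 0) of 12 collagen genes of other classes in OIR (red) and Control (blue); symbols are libraries, open where rich in lens RNA, with the mean (bar) and SD, cut at 0 where the SD exceeds the mean. Col6a1, Col6a2, Col6a4, Col7a1, Col20a1 and, by a small margin, Col23a1 lie higher in every OIR library, Col8a1 lies lower, and the type IX genes overlap.

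Enzymes and chaperones that modify, trim and cross-link collagen were read from a list of 26 genes, 22 of them tested. Of these 13 were higher in OIR and none was lower (11.6% and 7.22% of all tested genes), with a median log2 fold change of 0.40. Without Control 3 and OIR 2, 18 were higher and 1 was lower (17.3% and 16.0% of all tested genes). That gene, Pcolce2, is named after its values were seen and had a log2 fold change of -0.39 (adjusted p 0.022). Loxl2, a lysyl oxidase that cross-links chains, had 6.50, 4.96 and 7.997 RPKM in OIR and 2.15, 1.67 and 2.21 RPKM in Control (log2 fold change 1.30, SE 0.14, adjusted p 0.00083). P3h3, a prolyl hydroxylase family member, averaged 8.56 ± 0.541 RPKM in OIR and 4.74 ± 0.533 RPKM in Control, and the lysyl hydroxylase gene Plod1 averaged 15.4 ± 2.203 RPKM in OIR and 8.56 ± 0.669 RPKM in Control (SD, n = 3 each; adjusted p 0.00064 and 0.0011). Colgalt1, which adds galactose to hydroxylysine, had a log2 fold change of 0.41 (adjusted p 0.0038). None of these 4 overlapped between groups, and Control 3 lay near the other Controls for each. They were chosen for the smallest adjusted p over all libraries, which favours both traits, so neither speaks for the rest of the list.

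Among collagen receptors, 12 of 13 listed genes were in the tables and 6 were tested. Of them 4 were higher in OIR and none was lower (11.6% and 7.22% of all tested genes), with a median log2 fold change of 0.54. Of those 4, Mrc2 and Itga1 were under 1 RPKM in each Control and entered the test through OIR alone, so their calls were partly set by the filter. Mrc2, an endocytic receptor that takes up collagen, had 3.32, 1.92 and 4.11 RPKM in OIR and 0.221, 0.499 and 0.318 RPKM in Control, 9.01-fold apart in the means (log2 fold change 1.58, SE 0.20, adjusted p 0.0029). Ddr1, a receptor tyrosine kinase for collagen, had 34.2, 31.3 and 37.3 RPKM in OIR and 21.4, 21.9 and 21.6 RPKM in Control (log2 fold change 0.64, adjusted p 0.00054). The integrin chains Itga1 and Itgb1, which pair as a receptor for type IV collagen, had log2 fold changes of 0.69 (adjusted p 0.0012) and 0.44 (adjusted p 0.013).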

How the data were processed

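Retinal RNA was sequenced in 3 OIR and 3 Control libraries. The authors deposited 1 RPKM value per gene symbol and library. The submitters' processing notes name the aligners TopHat2 2.0.12 and Bowtie2 2.0.6. No source used here gives the build, the annotation, the counting program or what was done with shared reads. The library protocol in the labels describes duck material, so selection and strand are uncertain, and overlapping genes cannot be told apart. From the steps of low values, with GENCODE M21 transcript lengths for 81 genes, whole reads within 0.02 of a read were recovered for 99.94% of the 17953 genes above 0, and these gave the depths. 4220 genes were at 0 throughout.

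A gene entered the test if 3 or more libraries reached 1 RPKM. The two-sided test was limma 3.58.1 (R 4.3.3, trend and robust) on log2(RPKM + 1) with no term but group, which leaves 4 residual degrees of freedom. The Benjamini-Hochberg adjustment ran over all tested genes, with 0.05 as threshold. Every adjusted p of a gene comes from such a fit; without 2 libraries, 2 residual degrees of freedom remain. The procedure was tested on simulated data with the same spread for all genes and no lens-rich library. That test does not bear on results that depend on Control 3. Alternatives were 3 other scalings, a pseudocount of 0.1, no filter, a filter on the mean (at least 0.5 RPKM), lens RNA as a covariate, the replicate number as a block, leaving out each library or both lens-rich ones, a log2 fold change of at least 1, and limma-voom on recovered reads; the filter on the mean combined with left-out libraries was added after seeing the data. All collagen genes are named, and from the lists of processing genes, receptors and basement membrane partners the 4 tested members with the smallest adjusted p. Members and lists were chosen with earlier results of these data known. Promoter windows came from RefSeq (GRCm38.p6) by symbol; the tables' own build may differ. Col1a1, Col2a1, Col4a3, Col5a2, Col9a3, Col12a1, Col14a1, Col22a1 and Col26a1 were not matched to a window.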

Additional observations from a re-analysis of the deposited data

How the results depend on the processing

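Of the collagen calls, those of Col2a1, Col5a3, Col15a1, Col6a1 and Col6a2 held in all 18 alternative fits at the same threshold, while Col3a1, Col5a1, Col7a1, Col8a1 and Col20a1 lost theirs under 1 to 6 of them, mostly when 1 library was left out. Over single genes and settings, 388 fold changes kept direction and side of the threshold, 15 newly passed with the same sign, 16 no longer passed and 13 changed sign. Among the last, Col4a5 also passed without both lens-rich libraries (adjusted p 0.023, and 0.025 with the filter on the mean). The cause of these changes was not tested. Leaving out 1 library at a time gave 5 to 11 collagen genes higher (5 without OIR 1) and 0 to 1 lower, with 2 to 6 fibrillar, 1 to 3 basement membrane and 2 to 4 other genes higher; over all genes it gave 513 to 1754 higher and 212 to 1293 lower. Without both lens-rich libraries, 14 collagen genes were higher, 4 of them basement membrane genes, and 1 was lower, beside 2094 and 1943 of all genes. Adding the filter on the mean gave 17 collagen, 7 fibrillar and 4 basement membrane genes higher, with 2214 of all genes higher and 1963 lower. With that filter and without Control 3, 12 collagen genes were higher, 3 of them basement membrane genes, and 0 were lower, beside 1255 and 1044 of all genes. Asking for a log2 fold change of at least 1 left 2 collagen genes higher, 2 of them fibrillar, 0 basement membrane, 0 other and 0 lower, beside 115 and 4 of all genes; this follows from fewer genes meeting the condition. Genes lower numbered 1379 with upper-quartile scaling and 529 without a filter. Signs changed for 5 genes with no call in the fit to all libraries. Leaving out 1 library at a time, log2 fold changes ran from -0.32 to 0.35 for Col4a5, -0.33 to 0.019 for Col9a1, -0.086 to 0.24 for Col9a2, -0.056 to 0.25 for Col9a3 and -0.015 to 0.12 for Col17a1. Col4a5 was at 0.072 with lens RNA as a covariate and 0.0043 without OIR 2. Without Control 3, Col4a5 was at 0.35 and Col9a1 at 0.019, and without both lens-rich libraries at 0.43 and 0.023, with either filter. No pairing by replicate number was seen: the deviations of same-numbered libraries correlated at 0.222, -0.44 and -0.414, and not every library correlated best with its own number. The highest correlation, 0.493, was between the lens-rich OIR 2 and Control 3. Deviations from a mean of 3 libraries also depend on each other, so this check cannot exclude a pairing. With the number as a block, 9 collagen genes were higher and 1 lower, and 1222 and 809 of all genes. No scaling moved the median of all genes by over 0.1. Genes under about 1 RPKM are limited by depth.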
